A study of Mus musculus with 45 samples.

Results

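The change in gene expression after 1 h of IL-1b was set against the change after 1 h of TNF in p53KO mouse embryonic fibroblasts (MEFs), each measured from the 0 h libraries of its own stimulus. The labels gave 8 of the 45 libraries of the series for this comparison, 2 in each of the groups IL-1b 1 h, TNF 1 h, IL-1b 0 h and TNF 0 h. They were primary C57BL/6 embryonic cells, kept overnight in low-serum medium before stimulation, and all 4 groups carried the p53 deletion. IL-1b and TNF were each added at 10 ng per ml. The study compared p53-deficient cells, which can be kept in culture longer, with WT littermate cells for their response to activators of NF-kB. Each group had 1 library from KO-1 and 1 from KO-2, which the submitters describe as biological replicates. The labels do not say whether these came from separate embryos, so p-values measure a spread between libraries. That spread was estimated in a fit of all 45 libraries, from the p53KO pairs of every stimulus and time. WT MEFs gave 1 library in each group and carry no error.

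IL-1b and TNF are inflammatory cytokines with unrelated receptors. The IL-1 receptor signals through MyD88, IRAK kinases and TRAF6, and TNF receptor 1 through TRADD, RIPK1 and TRAF2. The routes meet at the kinases that release NF-kB from its IkB inhibitors and that activate the MAP kinases. In fibroblasts this induces immediate early genes, chemokines, cytokines and the inhibitors that later end the signal.

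The 8 libraries held 7630893 to 12735579 counts over genes (median 10622519) and 16751 to 17581 genes with a count. Levels are given as CPM, the counts of a gene scaled to a common library total. The values in each group are those of KO-1 and then KO-2. Trp53, the gene of p53, stood at 62 and 55.6 CPM at 1 h of IL-1b and 61.9 and 61.9 CPM at 1 h of TNF, against 187 and 202 CPM in the WT libraries of those groups. The extent of the deletion is not given in the labels. All 18 fibroblast markers tested had counts in at least 1 library of each group, and so had all 15 macrophage markers. Detection in every single library was not tested. Over the 8 libraries the fibroblast sums spanned 40918 to 46970 CPM, and the macrophage sums 416 to 553 CPM. In such bulk samples, fewer cells of a type and less RNA per cell cannot be told apart. The KO-2 library of TNF 1 h had 0.333% of its counts in mitochondrial genes, against 0.577 to 0.68% in the other 7. The calls that were lost without this library are therefore named below. The libraries of TNF 1 h also differed more from each other than those of the other groups. Their chi-squared per degree of freedom over genes was 8.4, against 3.68 to 4.81.

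The main question was which genes changed by different amounts after the 2 stimuli. Of the 13851 genes tested, 1 had a larger change after IL-1b, and it was Nfkbiz (0.00722% of genes, edgeR's quasi-likelihood test with Benjamini-Hochberg adjustment, adjusted p under 0.05). None had a smaller change. At an unadjusted p under 0.05 there were 177 genes with a larger and 149 with a smaller change, and DESeq2 also called 1 and 0. The difference of 2 changes draws error from 4 groups, and its median standard error over all genes was 0.18 on the log2 scale.

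Nfkbiz (ENSMUSG00000035356, chromosome 16, 55811488 to 55839012 on mm9, minus strand) encodes IkB-zeta, a nuclear IkB family protein that binds NF-kB p50 and helps to switch on a set of secondary inflammatory genes. At 1 h it stood at 527 and 546 CPM after IL-1b, and at 142 and 163 CPM after TNF. At 0 h it stood at 32.3 and 22.6 CPM in the IL-1b series and 26.1 and 20.7 CPM in the TNF series. The stimulated groups did not overlap, while the 0 h groups did. Nfkbiz rose after either stimulus, with a log2 change of 4.29 under IL-1b (SE 0.13, adjusted p = 8.04e-19) against 2.71 under TNF (SE 0.13, adjusted p = 3.61e-14). The difference in induction was a log2 of 1.58 (SE 0.18, adjusted p = 7.14e-05), or 2.98-fold, and was 1.59 in KO-1 and 1.61 in KO-2. The WT libraries gave 647 CPM after IL-1b and 146 CPM after TNF at 1 h, and a difference in induction of 1.98. The call held without any 1 of the 8 libraries, with log2 values of 1.35 to 1.86. Without the KO-2 library of TNF 1 h it was 1.68 (adjusted p = 9.67e-05). In a fit of the 8 libraries alone, the log2 was again 1.58 but the adjusted p was 0.0558.

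Over time Nfkbiz was highest at 1 h for either stimulus, and the IL-1b series stayed higher. In p53KO cells its mean after IL-1b was 27.5, 170, 537, 312 and 105 CPM at 0, 0.5, 1, 3 and 8 h. After TNF it was 23.4, 97.7, 153, 64.4 and 23.3 CPM at the same times. At 8 h the libraries stood at 107 and 103 CPM after IL-1b and 24.9 and 21.7 CPM after TNF, and did not overlap. The difference in induction was a log2 of 0.56 at 0.5 h (adjusted p = 0.186), 2.04 at 3 h (adjusted p = 8.25e-07) and 1.91 at 8 h (adjusted p = 8.5e-06). Of all genes tested 0.469%, 0.116% and 0.505% were called at these times. After LPS, which acts through Toll-like receptor 4 and MyD88, p53KO cells reached 206 and 227 CPM at 1 h. The LPS change exceeded the TNF change by a log2 of 0.42 (SE 0.18), which did not pass the test (0.13% of genes did).

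**Figure D1:**
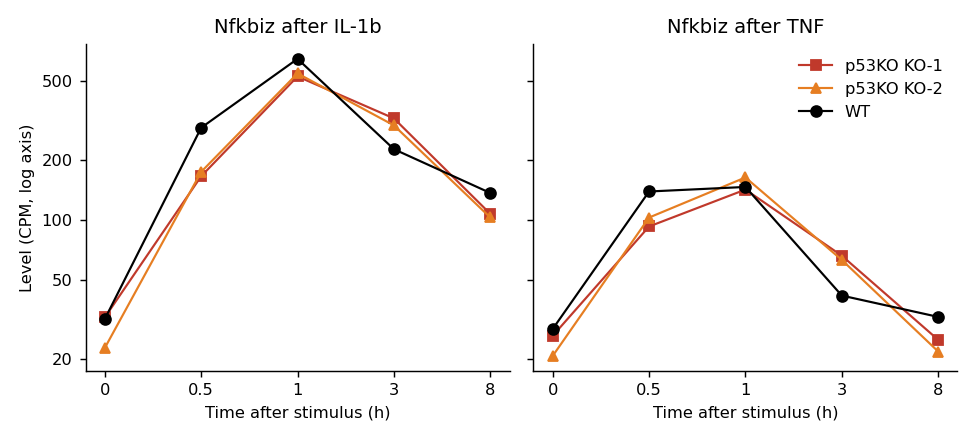
Level of Nfkbiz (CPM, log axis) in each library against time after IL-1b (left) or TNF (right), in h and equally spaced. At 1 h the p53KO lines stood at 527 and 546 CPM after IL-1b and at 142 and 163 CPM after TNF, and WT at 647 and 146 CPM.

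The responses as such were large and mostly common. After 1 h of IL-1b 385 genes (2.78% of those tested) were higher and 438 (3.16%) lower than at 0 h, 5.94% in all. After 1 h of TNF 422 (3.05%) were higher and 388 (2.8%) lower, 5.85% in all. Of these genes, 540 changed after both stimuli, each in the same direction, which is 65.6% of the IL-1b calls and 66.7% of the TNF calls. Over the 1093 genes changed after at least 1 stimulus, the median size of the difference in induction was 0.16 on the log2 scale, beside 0.12 over all genes tested. In 35 of them the difference reached a log2 of 1 in size. These counts fell to 485 for IL-1b without the KO-1 library at 0 h, and to 518 and 476 without the KO-1 or KO-2 library at 1 h. For TNF they fell to 485 and 503 without the KO-1 or KO-2 library at 0 h and to 516 without the KO-1 library at 1 h.

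**Figure D2:**
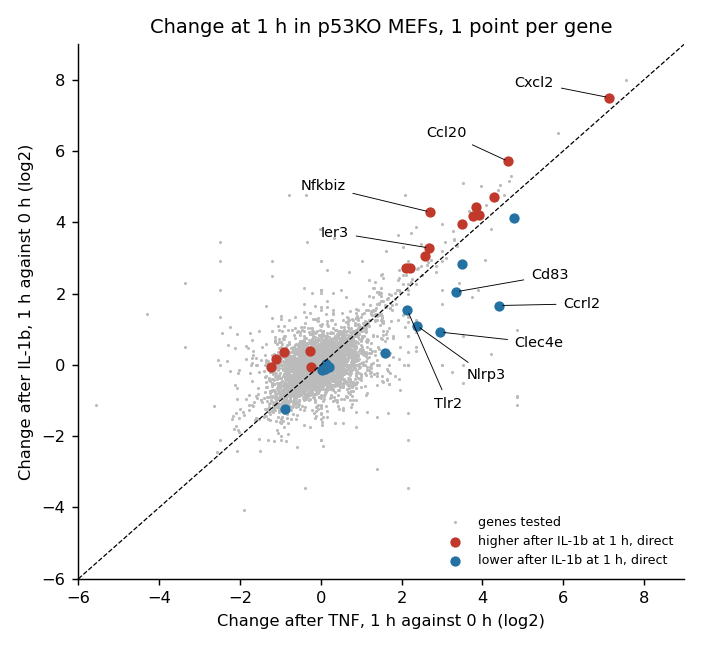
Change after 1 h of IL-1b (vertical) against change after 1 h of TNF (horizontal) in p53KO MEFs, both as log2 against 0 h, with 1 point for each of 13851 genes. Red and blue points are the 17 genes higher and 13 genes lower after IL-1b when the 1 h libraries were compared directly, and the dashed line marks equal changes. Nfkbiz, at 4.29 and 2.71, lies above the line.

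A direct comparison of the 1 h libraries, without the 0 h libraries, resolved smaller differences, with a median standard error of 0.13 on the log2 scale. It was made a result of its own after its values had been seen, as were the genes named from it. It called 30 genes (0.217% of those tested), 17 higher after IL-1b (0.123%) and 13 lower (0.0939%). The direction was the same in KO-1 and KO-2 for all 30, which a call on these same libraries largely fixes. Of all 13851 genes, 4338 were higher and 4027 lower after IL-1b in both lines. A fit that paired the libraries of a line (replicate block) called 92 and 67 genes directly, with all 30 among them. Between the stimuli at 0 h, where the design implies no difference, no gene passed the test, with 581 at an unadjusted p under 0.05 and 0 called by DESeq2. In the WT libraries 15 of the 17 were higher after IL-1b and 13 of the 13 lower, beside 50.3% of all genes higher and 49.7% lower. The WT difference in induction had the same sign for 12 of the 17 (70.6%) and 12 of the 13 (92.3%), beside 49.9% of all genes positive and 50.1% negative.

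Single libraries carried much of the direct count. Without the IL-1b 1 h library of KO-1 it called 14 genes higher and 2 lower, and without that of KO-2 it called 2 and 1. Without the TNF 1 h library of KO-1 it called 7 and 10, and without that of KO-2, the library with the low mitochondrial share, 6 and 7. Nfkbiz, Ier3 and Cd83 were called each time. They also kept their calls in each of 13 alternatives at the same threshold, while Ier3 fell short where a log2 of at least 1 in size was also asked. Il6 was called in 12 of the 13, and Ccl20 and Atf3 in 11. Without the TNF 1 h library of KO-2, the 10 genes of the 30 still called were Nfkbiz, Ier3, Il6, Ccl20, Irf1, Cd83, Tlr2, Ccrl2, Clec4e and Acod1. Cxcl2, Ccl2, Cxcl10, Atf3, Btg2, Map3k8, Zfp36, Nlrp3, Ptafr, Il1b, Ifit1 and Ifit3 were among those that lost their calls there, each with its direction kept. The call was lost whichever of the 4 libraries was left out for 10 genes, which were Ccl2, Btg2, Ifit1, Ifit3, Trim34a, Tnfrsf1a, Gm24270, Ptafr, Mn1 and Map3k20. A fit of the 1 h libraries alone kept 10 of the 30.

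**Figure D3:**
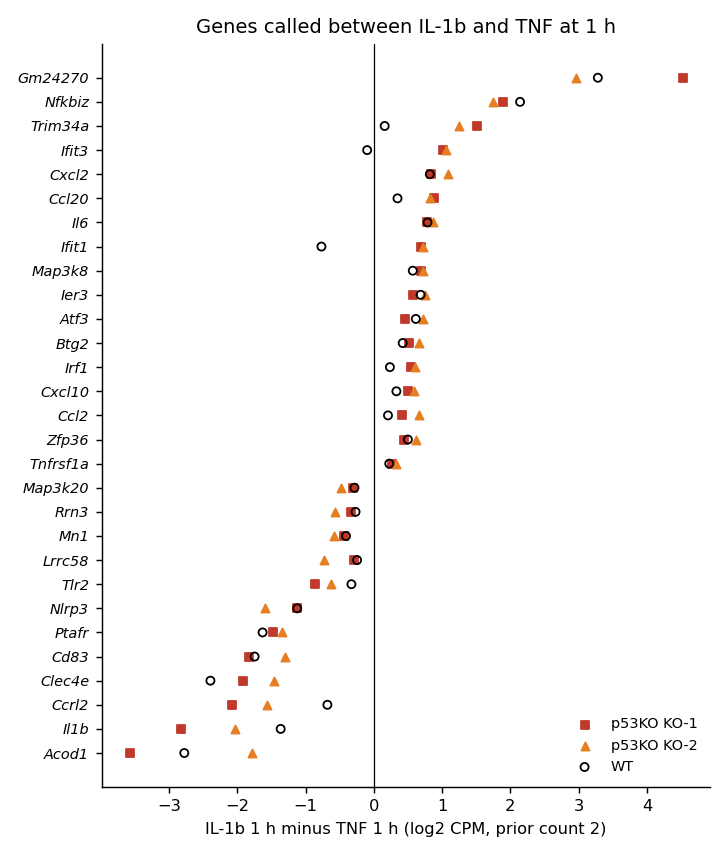
Difference between IL-1b 1 h and TNF 1 h (log2 CPM with a prior count of 2) in KO-1, KO-2 and WT for 29 of the 30 genes called in the direct comparison. Both p53KO lines lie on the same side of 0 for each gene, which a call on these same libraries largely fixes. The WT library lies on the other side for Ifit1 and Ifit3.

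Among the genes higher after IL-1b were chemokines, a cytokine and immediate early regulators that rose after either stimulus. Ier3 (ENSMUSG00000003541, chromosome 17, 35958629 to 35959868), a stress-response gene that acts on cell survival, stood at 466 and 473 CPM after IL-1b and 313 and 283 CPM after TNF. At 0 h it stood at 48 and 48.8 CPM in the IL-1b series and 46.9 and 45.5 CPM in the TNF series. All stimulated libraries were thus well above 0 h, and the IL-1b libraries above the TNF libraries, by a log2 of 0.66 (SE 0.08, adjusted p = 0.000182). Its difference in induction was 0.59 (SE 0.13), with an unadjusted p of 0.000108 and an adjusted p of 0.497.

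Il6 (ENSMUSG00000025746, chromosome 5, 30339701 to 30346508), an inflammatory cytokine, stood at 30 and 33.8 CPM after IL-1b and 17.5 and 18.4 CPM after TNF. The difference was a log2 of 0.83 (SE 0.13, adjusted p = 0.00227). Of 22 chemokine genes tested 4 were also higher after IL-1b and none lower, beside 0.123% of all genes. Ccl20 (ENSMUSG00000026166, chromosome 1, 83113341 to 83115742), which attracts cells that carry the receptor Ccr6, stood at 71.2 and 82 CPM after IL-1b and 38.5 and 46.4 CPM after TNF. Cxcl2, which attracts neutrophils, stood at 71.5 and 103 CPM after IL-1b and 40.1 and 48.6 CPM after TNF. In log2 the differences were 0.85 (SE 0.14, adjusted p = 0.00628) for Ccl20 and 0.98 (SE 0.18, adjusted p = 0.0153) for Cxcl2. Ccl2 and Cxcl10, for monocytes and T cells, were higher by 0.54 (SE 0.11) and 0.55 (SE 0.11). These are gaps at 1 h alone. The differences in induction were 0.44 for Il6, 1.06 for Ccl20, 0.35 for Cxcl2, 0.40 for Ccl2 and 0.62 for Cxcl10. None of them passed the test. For Cxcl2 the value ran from -0.14 to 1.16 when 1 library was left out. Cxcl1 had 233 and 381 CPM after IL-1b and 108 and 168 CPM after TNF, and its log2 difference of 1.15 (SE 0.32) did not pass the test (adjusted p = 0.171).

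The transcription factors Atf3 and Irf1, the growth-arrest gene Btg2, the kinase gene Map3k8 and Zfp36, whose protein destabilises cytokine messages, completed this group. Atf3 stood at 284 and 316 CPM after IL-1b and 206 and 191 CPM after TNF. Map3k8, which encodes the kinase Tpl2 upstream of ERK, stood at 16.2 and 19.6 CPM after IL-1b and 9.97 and 11.8 CPM after TNF. The 5 log2 differences at 1 h ran from 0.53 for Zfp36 to 0.71 for Map3k8. Their differences in induction ran from 0.28 for Zfp36 to 0.57 for Btg2, and none passed the test. Each of these genes had risen after either stimulus.

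The promoter windows below are those of 3 genes higher after IL-1b (Ier3, Il6, Ccl20) and 1 lower after IL-1b (Tlr2), chosen after the values were seen, to show the sequence next to the start site of genes on either side of the comparison. They are RefSeq sequences on GRCm38.p6, 250 bases before to 50 after the start, 5′ to 3′ on the gene's strand. The windows are chr17:35821463-35821762 (plus strand), chr5:30012864-30013163 (plus), chr1:83116516-83116815 (plus) and chr3:83841559-83841858 (minus). Capitals mark matches, on either strand, to the kappa-B consensus, the AP-1 site TGANTCA or the CArG box.
Ier3: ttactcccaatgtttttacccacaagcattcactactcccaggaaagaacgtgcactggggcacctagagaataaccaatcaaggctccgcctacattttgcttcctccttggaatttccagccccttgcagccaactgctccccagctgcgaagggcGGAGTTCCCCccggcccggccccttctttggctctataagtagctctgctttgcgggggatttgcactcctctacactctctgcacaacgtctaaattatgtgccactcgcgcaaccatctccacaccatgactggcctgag
Il6: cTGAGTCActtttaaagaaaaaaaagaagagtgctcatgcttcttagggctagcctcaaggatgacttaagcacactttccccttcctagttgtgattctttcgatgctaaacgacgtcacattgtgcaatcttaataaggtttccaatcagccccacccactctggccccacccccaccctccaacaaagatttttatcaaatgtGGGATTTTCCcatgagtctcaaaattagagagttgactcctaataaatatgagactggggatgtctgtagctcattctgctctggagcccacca
Ccl20: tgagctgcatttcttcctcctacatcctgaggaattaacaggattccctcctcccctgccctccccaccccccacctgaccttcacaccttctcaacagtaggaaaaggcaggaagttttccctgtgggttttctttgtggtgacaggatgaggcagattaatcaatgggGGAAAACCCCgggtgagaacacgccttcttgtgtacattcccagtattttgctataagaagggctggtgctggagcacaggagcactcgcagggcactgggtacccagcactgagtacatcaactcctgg
Tlr2: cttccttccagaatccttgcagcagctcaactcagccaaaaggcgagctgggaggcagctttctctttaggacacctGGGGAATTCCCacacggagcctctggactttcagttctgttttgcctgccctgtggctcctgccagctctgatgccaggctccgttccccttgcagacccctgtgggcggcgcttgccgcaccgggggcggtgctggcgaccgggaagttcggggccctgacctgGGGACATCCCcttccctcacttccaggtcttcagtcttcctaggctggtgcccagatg
Ier3 had a kappa-B match whose first base lay at position -92 from the start, Ccl20 had 1 at -80, and Il6 had 1 at -44 and an AP-1 match at -249. Tlr2 had 3 kappa-B matches, of which 2 overlapped. Of the 17 genes higher after IL-1b, 13 had a window, and 6 of those held a kappa-B match. Of the 13 lower genes, 10 had a window, and 3 of those held one. Nfkbiz and Cd83 were among the genes without a window. A kappa-B match stood in 4.51% of all 32851 windows, an AP-1 match in 7.81% and a CArG match in 1.63%. These shares are per window, while a gene was counted if any of its windows held a match. The 13 higher genes had 14 windows and the 10 lower genes had 14. Of the higher genes 3 held an AP-1 match and 1 a CArG match, and of the lower genes none did.

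The 8 genes with the largest differences among the 13 lower after IL-1b had low levels at 1 h, the highest being that of Tlr2. Cd83 (ENSMUSG00000015396, chromosome 13, 43880476 to 43898499), a surface protein of activated dendritic cells, stood at 3.27 and 3.92 CPM after IL-1b and 12.1 and 9.97 CPM after TNF. At 0 h it stood at 0.998 and 0.702 CPM in the IL-1b series and 0.861 and 1.29 CPM in the TNF series. Every TNF 1 h library was above every IL-1b 1 h library, and the log2 difference was -1.63 (SE 0.22, adjusted p = 0.000341). Cd83 rose after either stimulus, with a log2 change of 2.05 (SE 0.34) under IL-1b and 3.34 (SE 0.29) under TNF.

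Nlrp3 (ENSMUSG00000032691, chromosome 11, 59355070 to 59380458), an inflammasome sensor, stood at 3.43 and 3.17 CPM after IL-1b and 7.74 and 9.97 CPM after TNF. Tlr2 (ENSMUSG00000027995, chromosome 3, 83640195 to 83645689), a receptor for bacterial lipoproteins, stood at 22.4 and 22.4 CPM after IL-1b and 41 and 34.7 CPM after TNF. The log2 differences were -1.41 (SE 0.24, adjusted p = 0.00654) and -0.76 (SE 0.13, adjusted p = 0.00785). Both genes rose after either stimulus.

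The other 5 of these genes rose after TNF and did not pass the test after IL-1b. Ccrl2, an atypical chemoattractant receptor, stood at 1.01 and 0.933 CPM after IL-1b and 4.94 and 3.16 CPM after TNF. Clec4e, the receptor Mincle, stood at 2.26 and 1.59 CPM after IL-1b and 9.14 and 4.74 CPM after TNF. Ptafr, the receptor of platelet-activating factor, stood at 1.4 and 1.31 CPM after IL-1b and 4.28 and 3.65 CPM after TNF. Their log2 differences were -2.06 (SE 0.34), -1.85 (SE 0.36) and -1.54 (SE 0.32). Il1b, the gene of IL-1b itself, had 1 and 4 counts after IL-1b and 22 and 22 after TNF. Acod1, which makes itaconate, had 2 and 7 counts after IL-1b and 50 and 28 after TNF. At 0 h Il1b had 0 and 0 counts in the IL-1b series and 1 and 0 in the TNF series. The rise of Il1b after TNF thus rests on few counts, and no size of its change against 0 h is given. Acod1 had 0 and 1 counts in the IL-1b series and 4 and 1 in the TNF series at 0 h. Its direct log2 difference was -3.15 (SE 0.57), while its difference in induction was -0.65 (SE 4.19). The difference in the change from 0 h did not pass the test for any of these genes. The unadjusted p was 0.00983 for Ccrl2, 0.0115 for Nlrp3, 0.0167 for Clec4e, 0.0181 for Tlr2, 0.0197 for Cd83, 0.0304 for Ptafr, 0.63 for Il1b and 0.877 for Acod1. For Il1b and Acod1 the sign of the difference in induction changed when 1 library was left out.

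None of the 15 macrophage markers was called in either comparison of the stimuli, and 13 of the 15 had a positive direct difference, beside 7088 of 13851 genes. The median log2 difference of the list at 1 h was 0.14, beside 0.00 over all genes. Their sum was 553 and 516 CPM after IL-1b and 535 and 418 CPM after TNF at 1 h, and 489 and 432 CPM in the IL-1b series and 459 and 416 CPM in the TNF series at 0 h. After 1 h of LPS Cd83 stood at 27.6 and 29.1 CPM and Il1b at 14.1 and 14.7 CPM, above either cytokine, while Ptafr, at 3.46 and 3.32 CPM, was below TNF. Which cells made these messages was not tested.

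**Figure D4:**
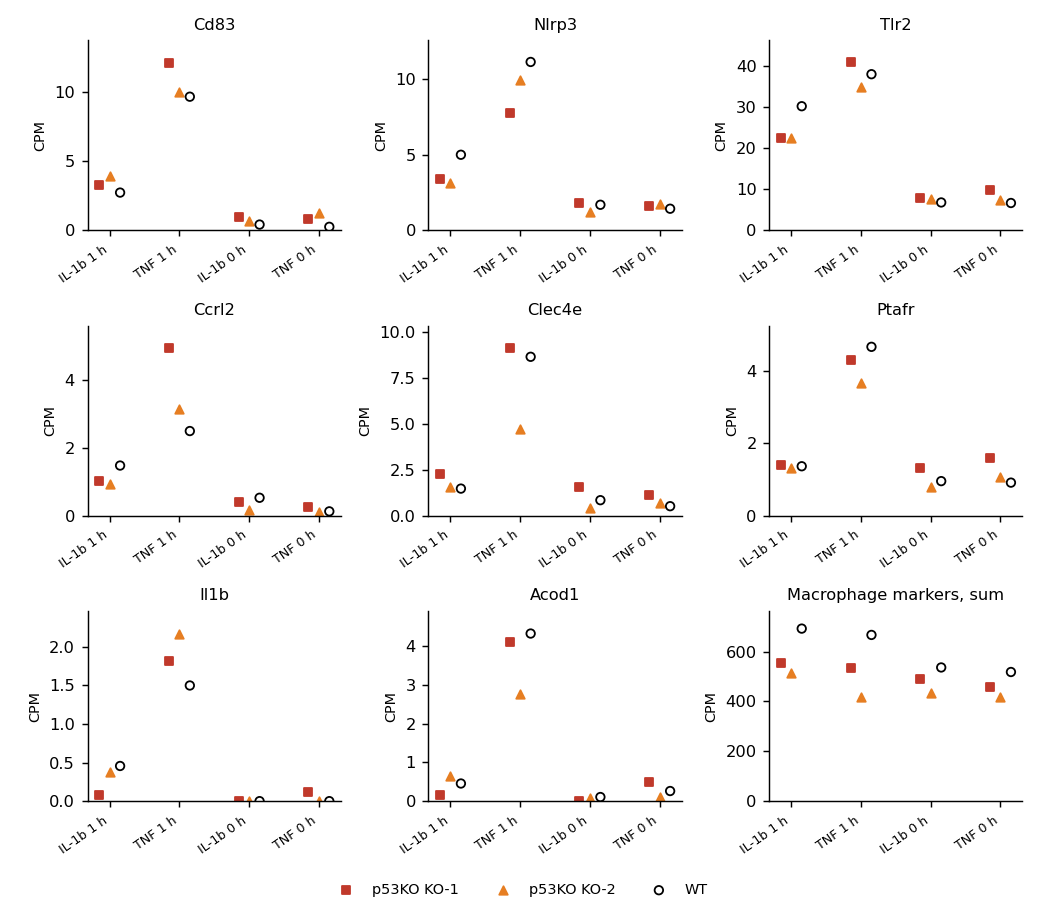
Level (CPM) of 8 genes lower after IL-1b in the direct comparison, and the summed level of 15 macrophage markers, in each library of the 4 groups. At 1 h every p53KO library of TNF lies above every p53KO library of IL-1b for the 8 genes. These genes were called on the same 1 h libraries, so their separation follows largely from that choice. The marker sums of the 1 h groups overlap.

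The remaining lower genes differed by less. Lrrc58 stood at 89.4 and 90 CPM after IL-1b and 110 and 149 CPM after TNF, and at 0 h at 101 and 98.1 CPM in the IL-1b series and 134 and 117 CPM in the TNF series. It did not pass the test against 0 h for either stimulus, and between the stimuli at 0 h its unadjusted p was 0.00421. Rrn3 and Map3k20 also did not pass the test against 0 h, and Mn1 fell after both stimuli. The short predicted gene Gm24270 was higher after IL-1b, with 8.33 and 7.55 CPM after IL-1b and 0.165 and 0.789 CPM after TNF at 1 h. At 0 h it already had 8.57 and 8.08 CPM in the IL-1b series and 0.492 and 1.64 CPM in the TNF series.

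Interferon-stimulated genes mostly had positive differences between IL-1b and TNF, few of which passed a test. Of 26 tested, 25 had a positive difference in induction, with a median log2 of 0.38, beside 6777 of 13851 genes and a median of -0.00 over all. None was called in that comparison, and 2 were in the direct one, beside 0.123% of all genes. The lines differed in the sum of the 26 genes. From 0 h to 1 h of TNF it went from 309.7 to 232.1 CPM in KO-1 and from 225.8 to 225.6 CPM in KO-2. In the IL-1b series it went from 306.1 to 295.5 CPM in KO-1 and from 237.7 to 259.1 CPM in KO-2. Ifit3, an antiviral protein gene, stood at 7.32 and 7.18 CPM after IL-1b and 3.54 and 3.35 CPM after TNF. At 0 h it stood at 5.99 and 5.27 CPM in the IL-1b series and 7.5 and 5.63 CPM in the TNF series. It fell after TNF by 0.92 on the log2 scale (SE 0.20, adjusted p = 0.00377) and had a log2 change of 0.36 (SE 0.16, adjusted p = 0.253) after IL-1b. Ifit1 had 14.1 and 14.6 CPM after IL-1b and 8.65 and 8.78 CPM after TNF. In the WT libraries 9 of the 26 had a positive difference, and Ifit1 had 2.16 CPM after IL-1b and 3.83 CPM after TNF. Trim34a, another called gene with antiviral relatives, stood at 2.26 and 2.15 CPM after IL-1b and 0.659 and 0.789 CPM after TNF. Ifit1, Ifit3 and Trim34a have close copies in the genome, between which reads may be split.

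The other lists gave few calls. Of 22 NF-kB feedback and subunit genes, 12 had risen under IL-1b and 12 under TNF, and 1 had fallen under TNF. Over all genes tested, 2.78% had risen under IL-1b and 3.05% under TNF, and 2.8% had fallen under TNF. Nfkbiz alone was called between the stimuli, and the list had a median difference in induction of 0.08. Nfkbia, the gene of IkB-alpha, had 523 and 555 CPM after IL-1b and 437 and 468 CPM after TNF, and Tnfaip3, the gene of the inhibitor A20, had 629 and 697 CPM after IL-1b and 461 and 531 CPM after TNF. Their differences in induction were 0.24 (SE 0.18) and 0.62 (SE 0.30), neither of which passed the test. Of 28 immediate early genes 23 had risen under IL-1b and 22 under TNF, and 1 had fallen under TNF. A positive difference in induction was seen in 24 of them (median 0.21), beside 6777 of all 13851 genes. Egr1, the gene of an immediate early zinc finger factor, had a difference in induction of 0.20 (SE 0.15), which did not pass the test.

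Of 27 cytokine and growth factor genes, 10 had risen under IL-1b and 12 under TNF, beside 2.78% and 3.05% of all genes. None was called for a difference in induction (median -0.03). Tnf itself had 4.67 and 4.66 CPM after IL-1b and 8.24 and 9.87 CPM after TNF. Its difference in induction was -1.84 (SE 0.61), with an unadjusted p of 0.00575 and no call. At 0.5 h its difference was -4.78 (SE 0.70, adjusted p = 0.00128). No gene of the 19 tested in the IL-1 receptor pathway was called in either comparison. Il1rap, the accessory chain of the IL-1 receptor, had a log2 change of 0.01 (SE 0.11) after IL-1b, which did not pass the test, and rose by 0.53 (SE 0.11, adjusted p = 0.00263) after TNF. Of 22 genes of the TNF receptor pathway, 1 was called directly as higher after IL-1b, beside 0.123% of all genes. Tnfrsf1a, the gene of TNF receptor 1, had 143 and 150 CPM after IL-1b and 119 and 119 CPM after TNF, a log2 difference of 0.30 (SE 0.06, adjusted p = 0.0336). This call held in 5 of 13 alternatives. It was lost without each of the 4 libraries, with DESeq2, without the filter on low counts, with the length and GC trend removed and in a fit of the 1 h libraries alone (adjusted p = 0.491). It fell after TNF by 0.25 on the log2 scale (SE 0.06, adjusted p = 0.0162). No p53 target, cell cycle, contractile, fibroblast, endothelial, epithelial, muscle or neural list had a call in either comparison.

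**Figure D5:**
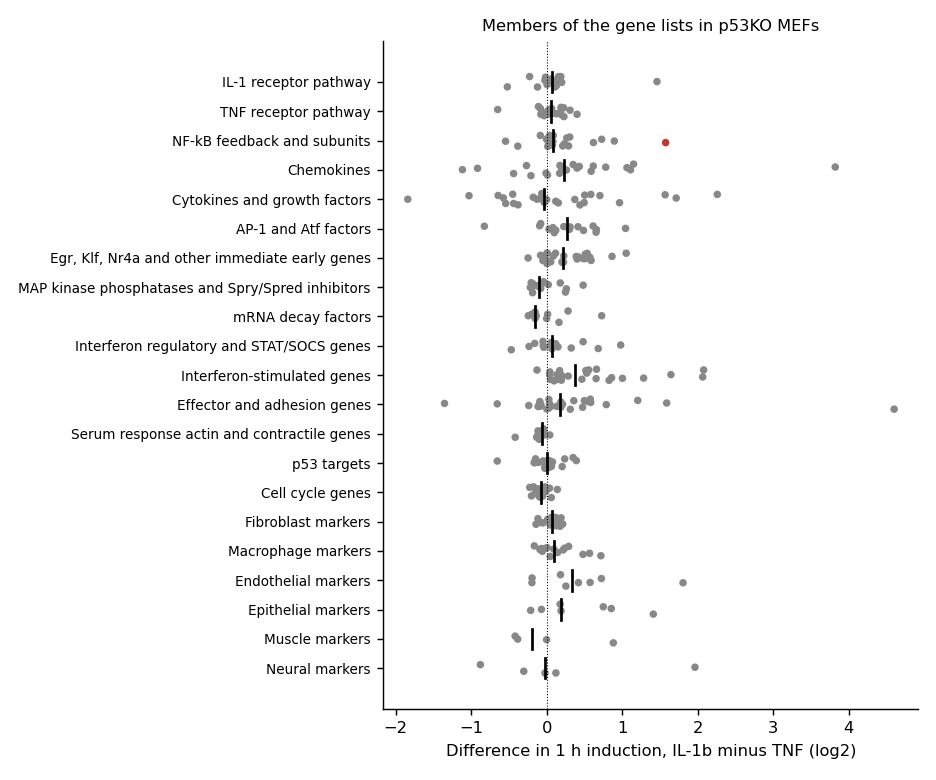
Difference in induction at 1 h, IL-1b minus TNF (log2), of each tested member of 21 gene lists in p53KO MEFs, with the median of each list as a black bar. The red point is Nfkbiz at 1.58, the only member called, and the interferon-stimulated genes have the highest median, at 0.38.

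The difference between the stimuli at 1 h was also set against that at 3 h, in which the 0 h libraries cancel. It changed for 19 genes (0.137% of those tested), also named after their values were seen, and for 16 of them (0.116%) it was higher at 3 h and for 3 (0.0217%) at 1 h. At 1 h Il6 stood at 30 and 33.8 CPM after IL-1b and 17.5 and 18.4 CPM after TNF, and at 3 h at 124 and 119 CPM after IL-1b and 21.1 and 19.1 CPM after TNF. Cebpd, a transcription factor of acute phase genes, had 11 and 12.2 CPM after IL-1b and 13.5 and 12.3 CPM after TNF at 1 h, and at 3 h 170 and 184 CPM after IL-1b and 44.9 and 59.2 CPM after TNF. Zc3h12a, whose protein degrades cytokine messages, had 30.1 and 34.4 CPM after IL-1b and 19.8 and 26.2 CPM after TNF at 1 h, and 154 and 194 CPM after IL-1b and 22.5 and 31.3 CPM after TNF at 3 h. The 1 h minus 3 h log2 values were -1.76 (SE 0.18, adjusted p = 2.59e-06) for Il6, -1.93 (SE 0.20, adjusted p = 3.02e-06) for Cebpd and -2.21 (SE 0.22, adjusted p = 2.59e-06) for Zc3h12a. All of these genes were thus further apart between the stimuli at 3 h than at 1 h. Irf1 turned round, with 163 and 206 CPM after IL-1b and 112 and 135 CPM after TNF at 1 h, and 30.4 and 33.8 CPM after IL-1b and 64 and 72.5 CPM after TNF at 3 h (log2 1.67, SE 0.18, adjusted p = 9.05e-06). For Nfkbiz the value was -0.46 (SE 0.16), which did not pass the test. The paired fit (replicate block) called 62 genes. Without a single library the count fell to 12 and 10 (IL-1b 1 h, KO-1 or KO-2), 11 (IL-1b 3 h, KO-2), 11 (TNF 1 h, KO-2) and 8 (TNF 3 h, KO-1).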

How the data were processed

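Poly(A) RNA of primary MEFs was made into stranded paired-end libraries, per the labels' protocols. The authors deposited raw read counts per Ensembl gene for 45 libraries. STAR, featureCounts, DESeq and mm9 are named in the submitters' processing notes; versions, annotation release and the strand setting of the counting are not given in the sources used here, so overlapping antisense genes are uncertain. The 5 categories that name no gene (24.65% of counts) were left out. Symbols came from GENCODE M21 for 32919 of 37991 IDs.

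A filter kept the 13851 genes that reached 1 CPM in 2 or more libraries. All 45 libraries were fitted together with the quasi-likelihood method of edgeR 4.0.16 in R 4.3.3, with TMM scaling (factors 0.889 to 1.07). The fit had 30 groups and 15 residual degrees of freedom. Benjamini-Hochberg adjustment was made over all genes within each contrast, with a call at an adjusted p under 0.05. DESeq2 1.42.0 and other filters, fits and left-out libraries were alternatives. The script was tested on simulated data. No pair of libraries was identical. KO-1 and KO-2 were read as the same cells in every group, which makes their numbers pair the libraries. Deviations from the group means, over 9632 genes, correlated between the 4 groups at -0.132 to 0.444.

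Named genes followed a rule: calls in the main comparison with the same sign in both lines, up to 4 genes of each list with the smallest p, and 12 fixed genes. Of the genes called directly, 1 is counted but not reported here by name. The gene lists, the rule and the comparison were chosen with earlier results of these data known.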

Additional observations from a re-analysis of the deposited data

Results flagged for a closer look

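The difference between IL-1b and TNF at 1 h was tested against that at 3 h in p53KO cells, and 19 genes passed edgeR's quasi-likelihood test. Values are log2, 1 h minus 3 h, so a negative value means that IL-1b stood higher relative to TNF at 3 h than at 1 h. The lowest values were those of secreted factors and regulators of inflammation, with -3.69 for Il1b, -3.59 for Csf3, -2.21 for Zc3h12a, -1.93 for Cebpd, -1.76 for Il6 and -1.22 for Socs3. Il1b had few counts at 1 h, and Csf3 stood at 0.701 and 0.653 CPM after IL-1b and 0.659 and 0.789 CPM after TNF at 1 h. The other negative values were -1.18 for Spsb1, -1.15 for En1, -1.07 for Angptl4, -1.04 for Ptch1, -0.89 for Pdgfa, -0.66 for Creb3l1, -0.64 for Id3, -0.64 for Ier3, -0.52 for Fgf7 and -0.51 for Hif1a. The positive values were 0.71 for Nedd9, 0.87 for Nuak2 and 1.67 for Irf1. At 1 h alone, 4 of the 19 were called between the stimuli, beside 0.217% of all genes, which are Il1b, Il6, Ier3 and Irf1. Both comparisons use the same 1 h libraries, so part of this overlap is built in.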

How the results depend on the processing

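Nfkbiz kept its call and its direction under 16 of 17 alternatives, with log2 1.35 to 1.86, and the exception was the fit of the 8 libraries alone, which called 0 genes with a larger change. Without the filter on low counts 8 genes had a larger change, and a direct comparison of the 1 h libraries gave 17 higher and 13 lower. Leaving out each of the 8 libraries gave 1 and 0 each time.

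The direct comparison called 107 higher and 63 lower genes without the filter, 4 lower in a fit of its libraries alone, and 4 and 7 with a log2 of at least 1 in size. Without 1 library it called 2 to 14 higher and 1 to 10 lower genes. The replicate block gave 92 and 67, and 62 genes between 1 h and 3 h. The paired fit moved no other count by more than 1.5 times. Between 1 h and 3 h, 115 genes were called without the filter, 8 in a fit of those libraries alone and 8 to 26 without 1 library. Genes changed after IL-1b numbered 484 with DESeq2 and 476 to 549 without 1 library. Genes changed after TNF numbered 473 with DESeq2, 370 in a fit of those libraries alone and 485 to 650 without 1 library. At 0 h, 20 genes differed without the filter and 1 in a fit of those libraries alone. The causes were not tested. No called value changed its sign. Among 120 named genes, 16 changed sign in the difference in induction and 24 in the direct difference in at least 1 alternative, none of them called in those comparisons. With 2 libraries a group, the median standard error of 0.18 on the log2 scale limits which differences can be called.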

Other observations

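The stimuli differed in other genes at other times in p53KO cells. The difference in induction was called for 65 genes at 0.5 h, 16 at 3 h and 70 at 8 h, beside 1 at 1 h. Transcript length was set against the deviation of each gene's log2 level from its mean in the same line, over 9561 genes. The Spearman rho was -0.222 and -0.345 in the KO-1 and KO-2 libraries of IL-1b 0.5 h. In the other libraries it was -0.263 to 0.231. With GC content the rho was 0.392 and 0.239, beside -0.255 to 0.22 in the other libraries. The part of these trends in the 0.5 h count was not tested. Gm24270 had 5.4 and 8.54 CPM after IL-1b and 0.346 and 1.22 CPM after TNF at 3 h in p53KO cells. In WT it had 11.5 CPM after IL-1b and 0.999 CPM after TNF at 1 h, and at 0 h 9.03 CPM in the IL-1b series and 0.523 CPM in the TNF series. The LPS libraries of p53KO had 7.64 and 9.83 CPM at 1 h. At 0.5 h of IL-1b it had 0.825 CPM in KO-1 and 8.09 CPM in KO-2.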
